A study of Homo sapiens with 132 samples.

Results

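The members of the LDL receptor family are cell surface proteins that carry cysteine-rich ligand-binding repeats. They bind lipoproteins, proteases with their inhibitors, matrix proteins and growth factors, and most of them carry their ligands into the cell by endocytosis. Some signal as well. VLDLR and LRP8 are the receptors of reelin and pass its signal to the adaptor DAB1, and LRP5 and LRP6 are the co-receptors of Frizzled in Wnt signalling. LRP1 clears complexes of proteases and inhibitors, and LRP2, also named megalin, takes up proteins and vitamin carriers in absorptive epithelia such as the kidney tubule. LDLRAD1, LDLRAD3 and LDLRAD4 are smaller membrane proteins with the same kind of repeat. Of these, LDLRAD4 lowers TGF-beta signalling, LDLRAD3 binds ubiquitin ligases of the NEDD4 type, and little is known of LDLRAD1.

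Here 9 genes were followed in RNA sequencing of gastric cancer cell lines: VLDLR, LRP8, LRP1, LRP2, LRP5, LRP6, LDLRAD1, LDLRAD3 and LDLRAD4. They were taken by their gene symbols from the 65217 gene identifiers counted. LDLRAD1 and LRP2 were chosen by their measured changes in these data, LDLRAD1 by the difference between afatinib and untreated NCI-N87 cells at 24 h and LRP2 by that between cetuximab and untreated MKN1 cells at 24 h. Both comparisons are therefore described by values with no test. The untreated libraries of these comparisons also served as controls elsewhere. For LRP2 against untreated MKN1 cells at 24 h and for LDLRAD1 against untreated NCI-N87 cells at 24 h, values are therefore given with no test, although both stay in the counts of called members. The study blocked or stimulated receptors of the EGFR family. MKN1 and Hs746T cells received EGF (5 ng/ml), the EGFR antibody cetuximab (Cet, 1 µg/ml), EGF with cetuximab, the HER2 antibody trastuzumab (Tra, 5 µg/ml), the EGFR family kinase inhibitor afatinib (Afa, 0.5 µM), trastuzumab with afatinib, or nothing. For MKN7 and NCI-N87 cells the EGF and cetuximab arms were not part of the design. All cells were harvested after 4 h or 24 h, and each of the 44 conditions had 3 replicates, which gave 42 libraries of MKN1, 42 of Hs746T, 24 of MKN7 and 24 of NCI-N87. All are established lines of gastric carcinomas grown in medium with serum, so each line stands for 1 tumour, and Hs746T was grown in another medium (DMEM) than the rest (RPMI), so line and medium cannot be told apart. The afatinib controls were untreated cells without the solvent DMSO.

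The libraries held 25832557 to 69434151 counts, with a median of 50725776, so that 3 counts, taken as the smallest level that can be shown, equal 0.0432 CPM in the deepest and 0.116 CPM in the shallowest library. This covers counting error only. Levels are CPM (counts scaled to a fixed library total) after TMM scaling over all libraries. The epithelial marker KRT8 had at least 271 CPM in every library, and KRT19 had 18.4 to 47.4 CPM in Hs746T against at least 836 CPM in the other lines. EPCAM, in contrast, was low in both MKN1 (14.9 to 29.7 CPM) and Hs746T (16.9 to 39.5 CPM), against at least 244 CPM in the other lines. The mesenchymal marker VIM had 158 to 1218 CPM in MKN1, 1333 to 2046 CPM in Hs746T and at most 16.5 CPM in the other lines. ZEB1 was also higher in MKN1 (26.4 to 85.1 CPM) and Hs746T (43.7 to 83.6 CPM) than in the other lines (at most 15.6 CPM). FN1 did not follow this split. It had 365 to 702 CPM in MKN7, which overlapped MKN1 (387 to 1537 CPM), 77.6 to 353 CPM in NCI-N87 and 1472 to 3434 CPM in Hs746T. The leukocyte markers PTPRC and CD3E stayed at or below 0.664 CPM and CD14 reached 9.09 CPM in MKN1, whereas the endothelial marker PECAM1 had 79.6 to 274 CPM in Hs746T, where VWF had at most 0.653 CPM. DUSP6, a target of ERK signalling, served as a check of afatinib. At 24 h it had 21.7 to 46.8 CPM after trastuzumab and 0.819 to 1.31 CPM after trastuzumab + afatinib in NCI-N87 cells. In Hs746T cells it had 34.3 to 42.0 CPM and 35.8 to 45.6 CPM.

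The upstream sequences of 4 genes with changes described below are shown. These are LDLRAD1 and LRP1, which rose after afatinib in NCI-N87 cells, LRP2, which rose in MKN1 cells, and LRP8, which fell in NCI-N87 and MKN7 cells. A link between sequence and change was not tested. Each is the 250 bases before the RefSeq start (GRCh38.p14), 5′ to 3′ on the strand of the gene, and capitals mark GC boxes. LDLRAD1 lies at chr1:54018187-54018436 (minus strand), LRP1 at chr12:57128233-57128482 (plus), LRP2 at chr2:169362535-169362784 (minus) and LRP8 at chr1:53328071-53328320 (minus).
LDLRAD1: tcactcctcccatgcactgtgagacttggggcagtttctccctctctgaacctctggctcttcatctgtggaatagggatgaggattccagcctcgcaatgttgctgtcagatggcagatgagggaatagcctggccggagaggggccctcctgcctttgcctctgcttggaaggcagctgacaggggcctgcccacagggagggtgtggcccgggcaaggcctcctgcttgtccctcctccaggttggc
LRP1: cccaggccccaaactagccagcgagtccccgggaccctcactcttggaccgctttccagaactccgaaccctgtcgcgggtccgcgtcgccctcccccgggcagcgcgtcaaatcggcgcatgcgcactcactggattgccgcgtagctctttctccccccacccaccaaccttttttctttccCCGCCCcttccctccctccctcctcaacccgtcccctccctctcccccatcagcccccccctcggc
LRP2: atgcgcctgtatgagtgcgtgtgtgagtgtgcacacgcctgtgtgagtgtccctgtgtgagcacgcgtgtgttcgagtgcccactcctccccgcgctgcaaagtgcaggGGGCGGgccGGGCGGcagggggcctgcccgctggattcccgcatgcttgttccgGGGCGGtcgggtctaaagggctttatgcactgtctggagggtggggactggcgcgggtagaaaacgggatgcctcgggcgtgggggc
LRP8: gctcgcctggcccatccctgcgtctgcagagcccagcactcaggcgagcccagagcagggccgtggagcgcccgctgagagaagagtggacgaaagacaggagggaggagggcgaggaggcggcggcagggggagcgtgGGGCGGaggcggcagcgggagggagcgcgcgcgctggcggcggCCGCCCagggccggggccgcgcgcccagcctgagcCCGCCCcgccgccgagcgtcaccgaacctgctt

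The GC box (GGGCGG, searched on both strands, as were all motifs) was found in the windows of VLDLR, LRP1, LRP2, LRP5, LRP8 and LDLRAD3 and not in that of LDLRAD1, and 42.6% of the 35116 windows of the RefSeq table hold it. The GC content was 60.8% for LDLRAD1, 67.6% for LRP1, 66.8% for LRP2 and 77.2% for LRP8, against a median of 58% over all windows. Motifs of AP-1 (TGANTCA, in 6.57% of all windows), ETS (CCGGAAG, 8.52%), FOXO (GTAAACA, 2.98%), TCF/LEF (CTTTGAT, 2.26%), the E-box (CACGTG, 6.34%), the CCAAT box (CCAAT, 32%) and the TATA box (TATAAA, 10.7%) were in none of the windows searched. The GC, CCAAT and TATA boxes were added after the other 5 motifs had given no match. LRP6 and LDLRAD4 were not searched.

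In untreated cells, LRP5 had the highest level per kilobase of exon in MKN1, MKN7 and NCI-N87, followed by LRP8 and LDLRAD3, and its level was far lower in Hs746T. Each line had 6 untreated libraries, 3 per time point, and the SD covers both times. Per kilobase, LRP5 had 41.2 ± 3.34 CPM (SD, n = 6) in MKN7, 29.5 ± 3.72 in NCI-N87 and 16 ± 1.87 in MKN1, against 0.723 ± 0.163 in Hs746T. Per kilobase, LRP8 had 19.7 ± 2.32 CPM in NCI-N87, 11.5 ± 2.71 in MKN7, 9.64 ± 3.38 in MKN1 and 6.12 ± 0.466 in Hs746T. With both times pooled, LDLRAD3 lay within the spread of LRP8 in MKN7 (12.3 ± 1.59 CPM per kilobase), MKN1 (8.76 ± 2.68) and Hs746T (6.12 ± 0.455). In MKN1 at 4 h, LRP8 had 12.6 ± 0.398 and LDLRAD3 11.1 ± 0.655 (n = 3). At 24 h they had 6.63 ± 1.09 and 6.38 ± 0.768. In NCI-N87 LDLRAD3 was lower (5.32 ± 0.477) and near LRP1 (4.6 ± 0.840). LRP6, which acts at the same step of Wnt signalling as LRP5, was far less abundant in those lines, with levels per kilobase between 0.243 ± 0.0502 in MKN1 and 0.664 ± 0.0850 in NCI-N87.

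**Figure D1:**
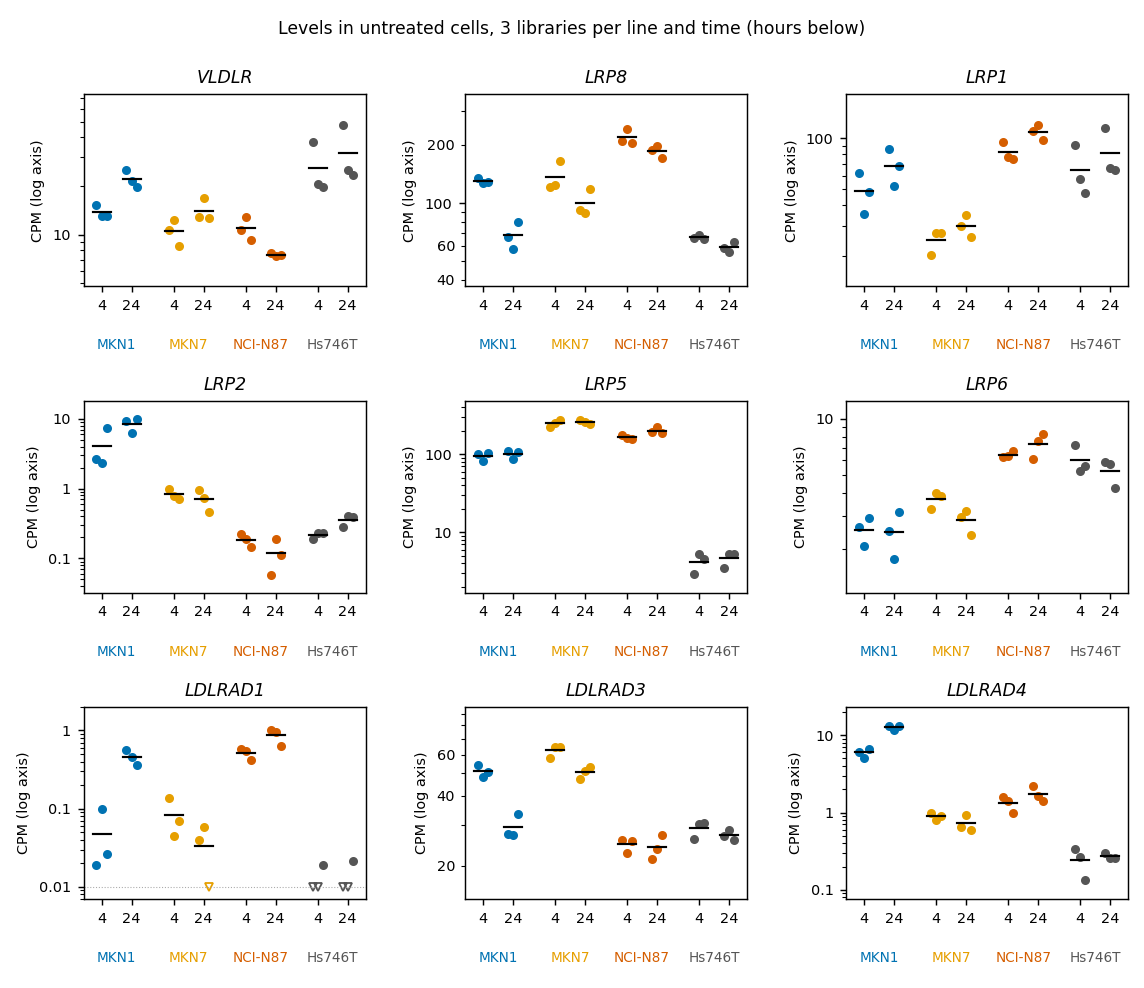
Levels of the 9 genes in untreated cells (CPM, log axes) by cell line and time point (4 h or 24 h). Points are libraries, lines are means of 3 libraries, and open triangles at 0.01 CPM are libraries with no count, which for LDLRAD1 were 4 in Hs746T and 1 in MKN7. LRP5 stands below 6 CPM in Hs746T and above 80 CPM elsewhere, and LRP2 and LDLRAD4 are highest in MKN1.

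Between untreated lines, gene levels (CPM, not per length) were compared in a fit of all libraries with edgeR's quasi-likelihood test, and a gene was called at a Benjamini-Hochberg adjusted p below 0.05 with an absolute log2FC above 1. Of 54 comparisons of a gene between lines, 32 were called. They include LDLRAD1 against Hs746T, where it had at most 2 counts in any library. Its call for MKN7 against Hs746T rested on 0 to 5 counts per library against 0 to 1. In a fit of only the groups compared the filter left it out. Of all genes tested, 41.4% were called for MKN1 against MKN7, 45.9% for MKN1 against NCI-N87, 47.8% for MKN1 against Hs746T, 44.4% for MKN7 against NCI-N87, 45.9% for MKN7 against Hs746T and 49.1% for NCI-N87 against Hs746T, so such differences were common. LRP5 had 2.97 to 5.29 CPM in Hs746T, 82.3 to 111 in MKN1, 157 to 220 in NCI-N87 and 222 to 277 in MKN7, with no overlap between lines. Its log2FC was 4.47 for MKN1 against Hs746T (adjusted p = 5.13e-48) and 5.84 for MKN7 against Hs746T (adjusted p = 1.66e-55). LRP2 had 2.30 to 10.1 CPM in MKN1, 0.456 to 1.00 in MKN7, 0.187 to 0.401 in Hs746T and 0.0584 to 0.221 in NCI-N87 cells. All MKN1 libraries lay above those of the other lines, with no test since the MKN1 libraries at 24 h entered the choice of LRP2, whereas Hs746T and NCI-N87, the lowest neighbours, overlapped and were not called. The order of LDLRAD4 was MKN1 with 5.14 to 13.2 CPM, NCI-N87 with 0.981 to 2.20, MKN7 with 0.586 to 1.00 and Hs746T with 0.134 to 0.336. MKN1 exceeded NCI-N87 by a log2FC of 2.51 (SE 0.17, adjusted p = 1.14e-25), and NCI-N87 and MKN7 touched at their ranges' ends.

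LDLRAD1 had low levels in untreated cells of every line. It had 0.417 to 1.01 CPM in NCI-N87, 0.0193 to 0.559 in MKN1 and 0 to 0.135 in MKN7 cells, and in Hs746T it had at most 2 counts in any of the 42 libraries, with 28 at 0. It was therefore not tested within Hs746T. LRP8, in contrast, was well counted in all lines, with 172 to 243 CPM in NCI-N87, 88.6 to 166 in MKN7, 57.7 to 134 in MKN1 and 55.7 to 68.4 in Hs746T. NCI-N87 exceeded Hs746T by a log2FC of 1.69 (SE 0.09, adjusted p = 3.87e-31), while the neighbours MKN7 and MKN1 had a log2FC of -0.31 (MKN1 against MKN7), within the limit of the call. VLDLR had its highest levels in Hs746T (19.8 to 47.9 CPM), with 37.4 and 47.9 CPM in replicate 1, but MKN1 (13.0 to 25.2) overlapped it. MKN7 (8.51 to 16.8) and NCI-N87 (7.37 to 12.9) overlapped each other. LRP1 was lowest in MKN7 with 20.2 to 35.1 CPM, against 35.4 to 85.9 in MKN1, 47.4 to 114 in Hs746T and 75.2 to 119 in NCI-N87. Some calls between lines were lost without a replicate. Without replicate 1 these were LDLRAD1, LRP2 (log2FC 1.11, adjusted p = 0.122), LDLRAD3 and VLDLR for MKN7 against Hs746T and LRP1 (log2FC 0.83) for MKN1 against MKN7, and without replicate 2 LRP8 for MKN1 against NCI-N87 (log2FC -0.93). LDLRAD1 was lost without replicate 2 and without replicate 3 for MKN1 against MKN7 and without replicate 2 for MKN7 against Hs746T. Without replicate 3, LRP6 for MKN7 against NCI-N87 (log2FC -0.95) and LDLRAD3 for MKN7 against Hs746T (0.98) were within the fold limit.

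The treatment with afatinib had its highest number of called members in NCI-N87. In NCI-N87 at 24 h with trastuzumab + afatinib against trastuzumab alone, LDLRAD1, LRP1 and LDLRAD4 rose, and LRP8, LDLRAD3 and VLDLR fell. These 6 of 9 members stand beside 28.2% of the 19078 genes tested that were called in this comparison. The median log2FC was -0.16 over the members and 0.04 over all genes. The libraries of this comparison did not enter the comparison that chose LDLRAD1, but same-numbered libraries of all treatments varied together.

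LDLRAD1 had 2.63, 1.76 and 0.998 CPM in the 3 trastuzumab libraries and 48.4, 58.0 and 41.1 CPM in the 3 trastuzumab + afatinib libraries. All of the latter lay far above the former, and the log2FC was 4.76 (SE 0.28, adjusted p = 5.12e-12), 27.1-fold. LRP1 had 120, 127 and 84.9 CPM after trastuzumab and 398, 394 and 263 CPM with afatinib. The groups did not overlap, and the log2FC was 1.64 (SE 0.17, adjusted p = 3.12e-08). LDLRAD4 had 2.07, 1.85 and 1.97 CPM after trastuzumab and 12.5, 9.01 and 7.47 CPM with afatinib added, and its log2FC was 2.28 (SE 0.25, adjusted p = 7.08e-08). The afatinib libraries were spread more widely, and each was above every trastuzumab library. The exons of LRP1 overlap those of STAT6 on the opposite strand, and whether strand was used in counting is not given in the sources used here. STAT6 had 231 to 490 CPM in NCI-N87 cells, and its part in the LRP1 result was not tested. The exons of VLDLR, LRP8 and LDLRAD4 overlap other genes on the opposite strand as well, of which VLDLR-AS1 had 1.31 to 6.24 CPM in NCI-N87.

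Of the genes that fell, LRP8 had 161, 181 and 175 CPM after trastuzumab and 27.1, 33.9 and 33.0 CPM after trastuzumab + afatinib. The log2FC of LRP8 was -2.48 (SE 0.13, adjusted p = 1.68e-12), and the groups did not overlap. LDLRAD3 had 20.8, 24.3 and 24.3 CPM against 8.38, 9.30 and 9.07 CPM with afatinib, a log2FC of -1.40 (SE 0.11, adjusted p = 3.89e-10). VLDLR had 7.25, 7.21 and 8.71 CPM against 4.39, 3.55 and 3.68 CPM. Its log2FC of -1.01 (SE 0.15, adjusted p = 6.58e-06) was just past the limit of the call. The call was lost with scaling by library size alone (-0.73), without replicate 2 (-0.999), without a filter (-0.97) and without replicate 3 (-0.89). With library size scaling 3 members thus rose and 2 fell. That scaling moved the median log2FC of all genes by 0.28 in NCI-N87, 0.15 in MKN1 and 0.11 in MKN7 cells in this comparison. The Wnt co-receptors moved least, with log2FC values of -0.33 for LRP5 (adjusted p = 0.0152) and -0.16 for LRP6. LRP2 had 2 to 6 counts per library after trastuzumab and 3 to 15 with afatinib, too few to show a difference at this depth.

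**Figure D2:**
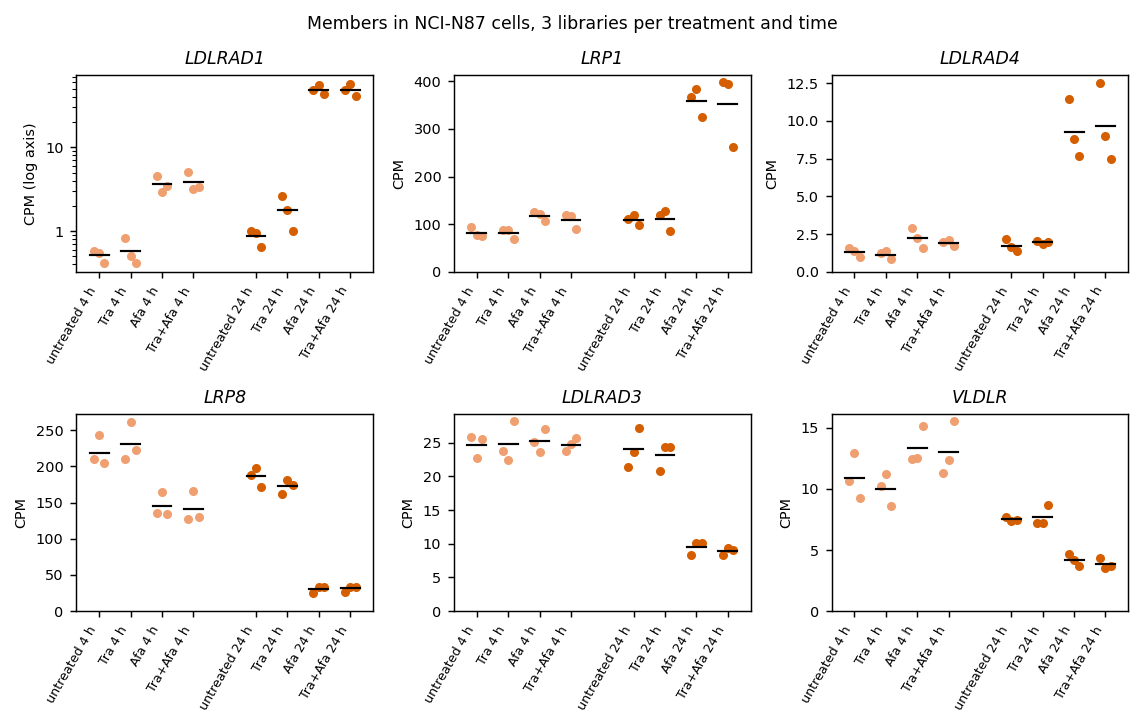
Levels (CPM) of LDLRAD1, LRP1, LDLRAD4, LRP8, LDLRAD3 and VLDLR in NCI-N87 cells by treatment and time. Points are libraries, lines are means of 3 libraries, and the axis of LDLRAD1 is logarithmic. At 24 h the afatinib and the trastuzumab + afatinib libraries lie above the others for LDLRAD1, LRP1 and LDLRAD4 and below them for LRP8, LDLRAD3 and VLDLR.

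After afatinib alone, the comparison that chose LDLRAD1, the NCI-N87 values at 24 h were close to those of the combination. LDLRAD1 had 1.01, 0.948 and 0.640 CPM in untreated cells and 47.9, 55.7 and 43.6 CPM after afatinib. LRP8 had 188, 198 and 172 CPM untreated and 25.6, 34.0 and 33.1 CPM after afatinib. In this comparison 29.6% of all genes were called. LRP1 went from 109 ± 10.5 to 358 ± 29.8 CPM (SD, n = 3) and LDLRAD4 from 1.74 ± 0.407 to 9.29 ± 1.96 CPM.

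At 4 h, LDLRAD1 was the only member called in NCI-N87 cells after trastuzumab + afatinib against trastuzumab, where 4.00% of all genes were called. It had 0.832, 0.504 and 0.415 CPM after trastuzumab and 5.06, 3.17 and 3.36 CPM with afatinib. The groups were clearly apart, with a log2FC of 2.74 (SE 0.31, adjusted p = 1.05e-06). In the same comparison LRP8 (log2FC -0.71, adjusted p = 0.000259) and LDLRAD4 (log2FC 0.75, adjusted p = 0.0461) had small adjusted p-values within the fold limit. LRP2 was not called (log2FC 1.75, adjusted p = 0.0862), but it was with the replicate number as a block (log2FC 1.80, adjusted p = 0.0437) and without replicate 1 (log2FC 3.23, adjusted p = 0.0149), from 0 to 9 counts per library after trastuzumab and 3 to 38 with afatinib, and the groups overlapped. Against untreated cells at 4 h, where 3.24% of all genes were called, the log2FC of LDLRAD1 after afatinib was 2.80 (adjusted p = 1.07e-06). Within the fold limit lay LRP8 (log2FC -0.59, adjusted p = 0.00178), LDLRAD4 (0.78, adjusted p = 0.0360) and LRP1 (0.52, adjusted p = 0.0311).

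The difference between the effects at 24 h and at 4 h was tested in the same fit. In NCI-N87 cells it was called for 6 members, while 14.3% of all genes were called. No member was called in MKN1, beside 0.787% of all genes, in MKN7 (1.92%) or in Hs746T (0.00%). The effect at 24 h was higher than that at 4 h by a log2 value of 2.02 for LDLRAD1 (adjusted p = 0.000831), 1.53 for LDLRAD4 (adjusted p = 0.00227) and 1.23 for LRP1 (adjusted p = 0.000367). For LRP8 the difference was -1.77, and the differences for VLDLR and LDLRAD3 were both -1.39. In the case of VLDLR, 4 h values were 10.3, 11.2 and 8.60 CPM after trastuzumab and 11.3, 12.3 and 15.5 CPM with afatinib, so all libraries with afatinib were the higher ones at 4 h and the lower ones at 24 h. For LDLRAD4 the call was lost without replicate 2 (log2 difference 1.44, adjusted p = 0.0768).

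In MKN1 cells at 24 h, LRP2 and LDLRAD1 rose after trastuzumab + afatinib against trastuzumab, 2 of 9 members beside 4.22% of all genes. LRP2 had 8.74, 6.03 and 9.77 CPM after trastuzumab and 31.2, 30.6 and 50.5 CPM with afatinib. Every afatinib library was higher. The log2FC was 2.17 (SE 0.55, adjusted p = 0.00348), and the ratio within same-numbered libraries was 3.57, 5.07 and 5.17. Without replicate 1 the log2FC was 2.32 with an adjusted p of 0.0572. LDLRAD1 had 0.330, 0.456 and 0.465 CPM after trastuzumab (18, 23 and 24 counts) and 1.59, 1.56 and 3.09 CPM with afatinib (88, 90 and 156 counts). Its log2FC was 2.28 (SE 0.44, adjusted p = 0.000212). Afatinib against untreated cells, where 4.19% of all genes were called, gave a log2FC of 2.20 for LDLRAD1 (SE 0.44, adjusted p = 0.000342). For LRP2 the untreated libraries are those that entered its choice, so that only its values are given: 31.0, 24.96 and 50.6 CPM after afatinib and 9.18, 6.21 and 10.1 CPM untreated.

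LRP8 came close to the fold limit in MKN1 cells. It had 64.2, 64.9 and 78.6 CPM after trastuzumab and 40.3, 41.0 and 32.4 CPM with afatinib at 24 h, without overlap. The log2FC of LRP8 was -0.90 (SE 0.11, adjusted p = 2.90e-07), and it passed the limit without replicate 1 (-1.004). LDLRAD4 (log2FC 0.61), LRP1 (0.71) and LDLRAD3 (-0.53) also had adjusted p-values of at most 0.0478 within the fold limit. The LRP1 groups overlapped, and its ratios within same-numbered libraries were 1.55, 1.79 and 1.75. At 4 h, edgeR called 0 of 9 members in MKN1 cells, where 0.631% of all genes were called, with 1 member at an unadjusted p below 0.05 and 0 by DESeq2. Afatinib against untreated MKN1 cells at 4 h also had 0 calls by edgeR and DESeq2, beside 0.681% of all genes, and 2 members at an unadjusted p below 0.05. LRP8 had a log2FC of -0.36 at that time (adjusted p = 0.0472). LDLRAD1 had 1, 0 and 1 counts after trastuzumab and 2, 1 and 8 counts with afatinib, a ratio of 4.92 with a 95% counting interval of 1.07 to 45.6. Here and below, this interval covers the counting error of the summed counts and not the spread between libraries. Most of the afatinib counts came from 1 library, so no rise is read from it. The change of the LRP2 effect from 4 h to 24 h was 2.25 on the log2 scale (adjusted p = 0.108), 2.21 with the replicate block (adjusted p = 1.25e-10) and 2.01 without replicate 3 (adjusted p = 0.0139).

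**Figure D3:**
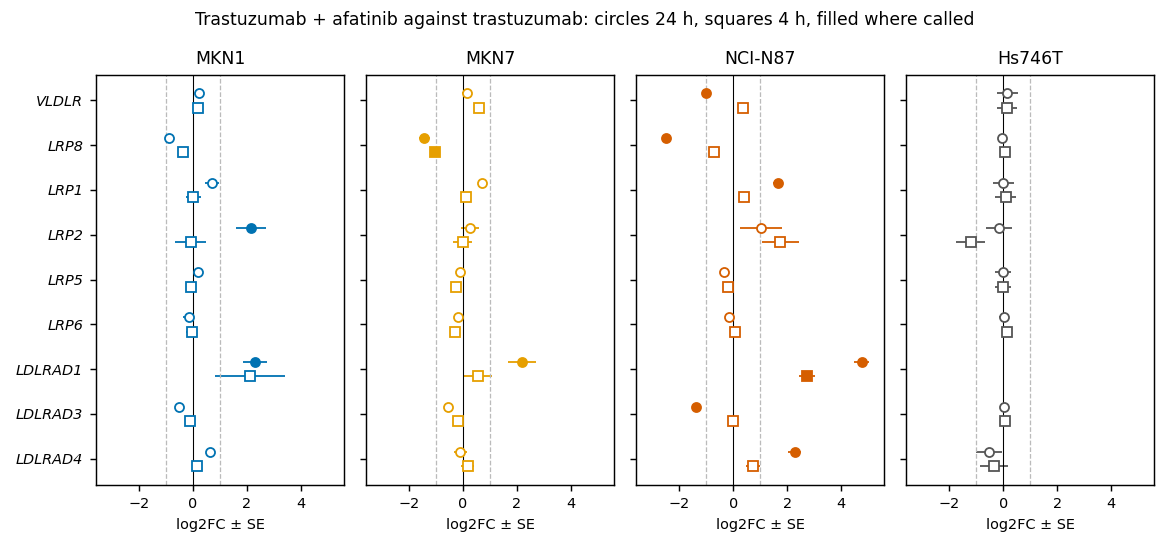
Log2FC ± SE of the 9 members for trastuzumab + afatinib against trastuzumab, with circles for 24 h and squares for 4 h. Filled symbols were called (adjusted p below 0.05 and log2FC beyond the dashed lines at -1 and 1). LDLRAD1 was called at 24 h in MKN1, MKN7 and NCI-N87 cells, was not tested in Hs746T, and no member was called in Hs746T.

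In MKN7 cells at 24 h, LRP8 fell and LDLRAD1 rose, 2 of 9 members beside 9.70% of all genes. LRP8 had 79.6, 74.2 and 112 CPM after trastuzumab and 29.5, 28.3 and 41.7 CPM with afatinib. All libraries with afatinib were lower. The log2FC was -1.43 (SE 0.19, adjusted p = 5.32e-06), and the ratio within same-numbered libraries was 0.370, 0.381 and 0.372. LDLRAD1 had only 3, 5 and 3 counts after trastuzumab and 15, 24 and 17 with afatinib. The log2FC was 2.19 (SE 0.52, adjusted p = 0.00167), and the ratio of the summed counts per depth was 4.75 with a 95% counting interval of 2.46 to 10.1. Afatinib against untreated cells, where 13.5% of all genes were called, gave a log2FC of -1.57 for LRP8 (SE 0.19, adjusted p = 9.59e-07) and called LDLRAD1 from 2, 3 and 0 against 21, 13 and 13 counts (adjusted p = 0.000309), a ratio of 8.52 with a counting interval of 3.40 to 27.4. LRP1 had a log2FC of 0.69 after trastuzumab + afatinib (adjusted p = 0.000374) and LDLRAD3 one of -0.56 (adjusted p = 8.92e-05).

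LRP8 was lower in MKN7 cells already at 4 h, the only member called beside 2.96% of all genes. It had 128, 113 and 145 CPM after trastuzumab and 59.9, 60.5 and 68.5 CPM with afatinib. The groups were well apart, but the log2FC of -1.03 (SE 0.19, adjusted p = 0.000431) lay close to the limit. The call was lost with library size scaling (-0.948), without replicate 1 (-0.999) and without replicate 3 (-0.988). Against untreated cells, where 3.40% of all genes were called, LRP8 had a log2FC of -1.12 (SE 0.19, adjusted p = 0.000156). LRP5 had a log2FC of -0.27 in the combination at 4 h (adjusted p = 0.00904), and VLDLR one of 0.58 (adjusted p = 0.0267).

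In Hs746T cells edgeR called 0 of 8 members tested at either time, for the combination against trastuzumab and for afatinib against untreated cells, and 0.00% of all genes were called. DESeq2 called 0 as well, and the only value with an unadjusted p below 0.05 was that of LRP2 for the combination at 4 h. LRP8 had 57.4, 61.3 and 62.5 CPM after trastuzumab and 53.8, 58.3 and 60.9 CPM after trastuzumab + afatinib at 24 h. The groups overlapped.

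The effects of afatinib added to trastuzumab were also compared between lines with interaction contrasts, and 15 of 108 such differences of a member were called. The 108 include LDLRAD1 against Hs746T, where it had at most 2 counts in any library. At 24 h, 11.5% of all genes were called for MKN1 against NCI-N87, 8.56% for MKN7 against NCI-N87 and 18.6% for NCI-N87 against Hs746T. LDLRAD1 rose more in NCI-N87 than in MKN1 by a log2 difference of 2.47 (given as MKN1 minus NCI-N87: -2.47, SE 0.48, adjusted p = 3.19e-05). LDLRAD4 had -1.66 in the same direction (SE 0.31, adjusted p = 1.24e-05) and -2.38 for MKN7 minus NCI-N87 (SE 0.35, adjusted p = 5.80e-08). The decrease of LRP8 was larger in NCI-N87 than in MKN1 by 1.59 (adjusted p = 1.93e-11) and than in MKN7 by 1.04 (adjusted p = 5.49e-06). The latter was lost with DESeq2 (0.92), with library size scaling (0.88) and without replicate 3 (0.99). For MKN7 minus Hs746T, with 4.32% of all genes called at 24 h and 1.48% at 4 h, LRP8 was called at both times (-1.35 and -1.07), but at 4 h the call was lost with library size scaling, without replicate 1 and without replicate 3 (all -0.98). LDLRAD1 for MKN7 minus NCI-N87 (-2.57, adjusted p = 0.0140) was lost without replicate 2 (adjusted p = 0.146) and without replicate 3 (adjusted p = 0.0634). VLDLR differed between NCI-N87 and each of the other lines, with adjusted p-values of 0.0118 to 0.0226, and these calls were lost without replicate 2 and without replicate 3. Library size scaling ended those against MKN7 and Hs746T (adjusted p = 0.0529 and 0.0588).

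No difference was called between MKN1 and MKN7 (beside 1.81% of all genes at 24 h and 0.350% at 4 h), between MKN1 and Hs746T (1.30% and 0.245%), or at 4 h between MKN1 and NCI-N87 (0.740%), MKN7 and NCI-N87 (0.495%) and NCI-N87 and Hs746T (2.52%). LRP2 at 24 h was close to it. Its effect in MKN1 exceeded that in MKN7 by 1.91 (adjusted p = 0.106) and that in Hs746T by 2.37 (adjusted p = 0.0617). With the replicate block these differences were called (1.89 and 2.31, adjusted p = 1.44e-06 and 9.95e-06), as they were in a fit of only the groups compared (adjusted p = 0.0306 and 0.0389). The block also called LDLRAD4 for MKN1 minus Hs746T at 24 h (1.15, adjusted p = 0.00681). DESeq2 called LRP2 and LDLRAD4 for MKN1 minus Hs746T (2.36 and 1.21), LRP1 for MKN1 and MKN7 minus NCI-N87 (-1.05 and -1.08) and, at 4 h, LRP2 for NCI-N87 minus Hs746T (2.97). At 4 h the block called LDLRAD1 for MKN7 minus NCI-N87 (-2.17, adjusted p = 0.0276) and LRP2 for MKN1 minus NCI-N87 (-1.91), MKN7 minus NCI-N87 (-1.88) and NCI-N87 minus Hs746T (3.08).

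EGF treatment of MKN1 cells for 24 h lowered LDLRAD1, the only member read as called, beside 8.36% of all genes. For LRP2 only values are given, since the untreated libraries entered its choice. LRP2 had 9.18, 6.21 and 10.1 CPM in untreated cells and 1.72, 1.69 and 2.48 CPM after EGF. All EGF libraries were lower. LDLRAD1 had 31, 23 and 17 counts untreated and 1, 0 and 5 counts after EGF. The untreated level was 11.3 times the EGF level with a 95% counting interval of 4.93 to 31.7, and the adjusted p was 0.000499. LDLRAD4 had a log2FC of -0.78 (13.2, 11.8 and 13.0 against 6.74, 7.12 and 7.84 CPM, adjusted p = 1.87e-06), LDLRAD3 one of 0.55 (adjusted p = 9.63e-06), LRP8 one of 0.53 with overlapping groups (adjusted p = 0.000140) and VLDLR one of -0.33 (adjusted p = 0.0276). These comparisons share the untreated libraries with those of afatinib and of cetuximab against untreated cells. At 4 h in MKN1 edgeR and DESeq2 called 0 of 9 members, with 2 at an unadjusted p below 0.05, beside 1.48% of all genes. In Hs746T both tools called 0 of 8 members at either time, with 0 at an unadjusted p below 0.05, beside 0.00% of all genes.

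Cetuximab gave the comparison that chose LRP2. In MKN1 cells at 24 h LRP2 had 25.1, 22.8 and 36.0 CPM after cetuximab against 9.18, 6.21 and 10.1 CPM untreated. LDLRAD1 had 0.777, 1.21 and 1.57 CPM after cetuximab against 0.559, 0.462 and 0.365 CPM untreated. All cetuximab libraries were above the untreated ones for both genes, and 1.33% of all genes were called. For the separate libraries of EGF + cetuximab against EGF, edgeR called 0 of 9 members in MKN1 cells at either time, and 0.156% of all genes at 24 h and 0.126% at 4 h. LRP2 had 2.42, 1.70 and 4.64 CPM with cetuximab against 1.72, 1.69 and 2.48 CPM after EGF alone, and the groups overlapped. LDLRAD1 had 3, 4 and 6 counts against 1, 0 and 5, a ratio of 2.03 with a counting interval of 0.721 to 6.52. Over the lines and times of this comparison, 2 of 34 values of a member had an unadjusted p below 0.05, and DESeq2 called 0. The other cetuximab comparisons with untreated cells (MKN1 at 4 h, with 0.333% of all genes called, and Hs746T at both times) called 0 of 25 values, with 1 at an unadjusted p below 0.05 and 0 by DESeq2.

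**Figure D4:**
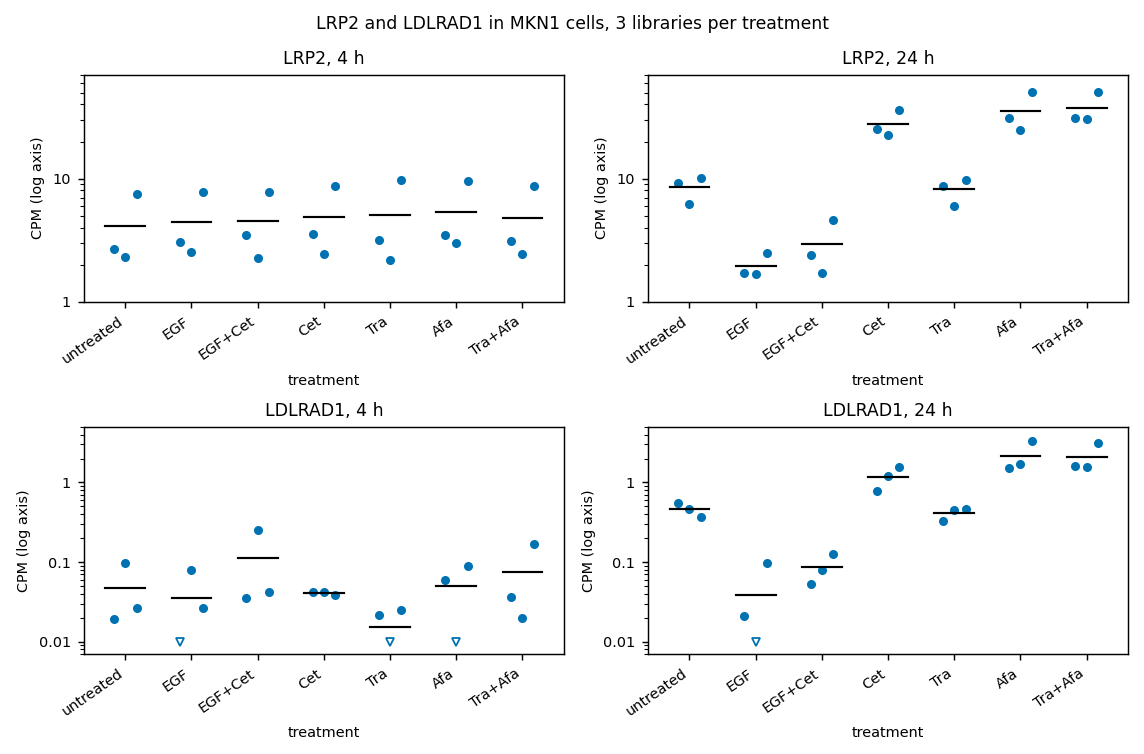
Levels (CPM, log axes) of LRP2 and LDLRAD1 in MKN1 cells by treatment at 4 h and 24 h. Points are libraries, lines are means of 3 libraries, and open triangles at 0.01 CPM are libraries with no count. At 24 h the libraries with EGF lie lowest for both genes and those with cetuximab alone, afatinib or trastuzumab + afatinib lie highest, while LRP2 at 4 h shows 1 high library, replicate 3, in every treatment.

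Trastuzumab alone called 0 of 70 values of a member over the 4 lines and both times by edgeR and 0 by DESeq2, and 0 with the replicate block. In the same comparisons 0.00% of all genes were called. The 1 value with an unadjusted p below 0.05 was that of LDLRAD1 in NCI-N87 cells at 24 h. These untreated libraries entered the choice of LDLRAD1, so that value is not read as a result. LDLRAD1 had 2.63, 1.76 and 0.998 CPM after trastuzumab and 1.01, 0.948 and 0.640 CPM untreated, and the groups overlapped. The ratios within same-numbered libraries were 2.60, 1.86 and 1.56. They rest on the same untreated libraries and are no separate support for a rise.

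Untreated MKN1 cells differed between 4 h and 24 h, where time and day of harvest cannot be told apart. From 4 h to 24 h, LDLRAD1 and LDLRAD4 rose, 2 of 9 members beside 8.06% of all genes. LDLRAD1 went from 1, 4 and 1 counts to 31, 23 and 17 counts (adjusted p = 0.000930), and without replicate 1 the adjusted p was 0.0656. LDLRAD4 went from 6.12, 5.14 and 6.65 CPM to 13.2, 11.8 and 13.0 CPM, without overlap. Its log2FC was 1.06 (SE 0.11, adjusted p = 1.29e-08). LRP8 had 134, 126 and 129 CPM at 4 h and 66.5, 57.7 and 80.0 CPM at 24 h, a log2FC of -0.95 (adjusted p = 1.66e-08), and LDLRAD3 had one of -0.82 (adjusted p = 1.19e-08). LRP8 was called without replicate 3 (-1.08). LRP2, whose 24 h libraries entered its choice, had 2.66, 2.30 and 7.47 CPM at 4 h and 9.18, 6.21 and 10.1 CPM at 24 h, and the groups overlapped. In the other lines edgeR and DESeq2 called 0 members, where MKN7 had 1.76% of all genes called, NCI-N87 0.0472% and Hs746T 0.129%. An unadjusted p below 0.05 was found for 4 members in MKN7, for 4 in NCI-N87 (LDLRAD1 among them) and for 0 in Hs746T. That of LDLRAD1 in NCI-N87 is not read as a result, since the untreated 24 h libraries entered its choice.

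Several members differed between libraries by replicate number in the same way in all treatments. In Hs746T cells, VLDLR had 33.7 to 39.2 CPM in the 7 libraries of replicate 1 at 4 h, against 18.4 to 22.7 in replicate 2 and 18.6 to 21.5 in replicate 3. At 24 h the ranges of VLDLR were 43.8 to 48.7, 24.2 to 28.0 and 23.2 to 28.1 CPM, again without overlap of replicate 1 with the rest. LRP1 in Hs746T showed the same order, with 73.9 to 95.7 CPM in replicate 1 at 4 h and at most 57.4 in the others. In MKN1 cells, LRP2 had 7.47 to 9.75 CPM in replicate 3 at 4 h, 2.66 to 3.52 in replicate 1 and 2.19 to 3.01 in replicate 2. Replicate 3 had the highest LRP2 level in 7 of 7 treatments at both times. What the replicate number stands for, such as a day or a passage, was not tested. Without replicate 1, the difference of VLDLR between untreated MKN7 and Hs746T cells fell from a log2FC of -1.25 to -0.86, within the fold limit.

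**Figure D5:**
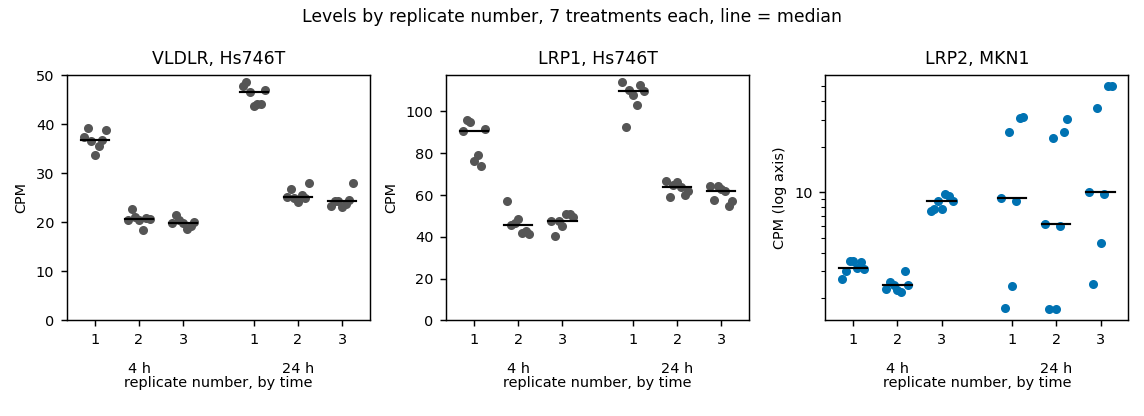
Levels (CPM) of VLDLR and LRP1 in Hs746T cells and of LRP2 in MKN1 cells (log axis) by replicate number and time. Each point is 1 library, the line is the median of 7 treatments. Replicate 1 lies above the others for VLDLR and LRP1 in Hs746T, and replicate 3 above the others for LRP2 in MKN1 at 4 h.

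Partners of the family were described with 6 gene lists for trastuzumab + afatinib against trastuzumab at 24 h. Of all genes, 28.2% were called in this comparison in NCI-N87, 9.70% in MKN7, 4.22% in MKN1 and 0.00% in Hs746T, and the median log2FC of all genes was 0.04 in NCI-N87, 0.04 in MKN7 and 0.01 in MKN1. Of 9 other relatives, 8 were tested in NCI-N87 cells, and 1 rose and 2 fell (median log2FC 0.09), 3 of 8 beside 28.2% of all genes. SORL1, a sorting receptor of the endosome, rose from 219 ± 39.0 to 675 ± 74.1 CPM (SD, n = 3). LRP3 fell from 14.6 ± 1.61 to 4.48 ± 0.733 CPM and LRP4, a co-receptor of agrin, from 5.57 ± 1.19 to 2.43 ± 0.866 CPM. In MKN7 cells LRP4 fell from 2.59 ± 0.439 to 1.16 ± 0.0706 CPM and LDLRAD2 rose from 0.391 ± 0.262 to 2.0 ± 0.466 CPM. In MKN1 cells edgeR called 0 of 8 relatives, with 4 at an unadjusted p below 0.05.

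Of 12 chaperones, adaptors and ligands, 2 rose in NCI-N87 cells (median log2FC -0.02), beside the 28.2% of all genes called in either direction. CUBN, the partner of LRP2 in endocytosis, rose from 1.05 ± 0.125 to 2.58 ± 0.394 CPM, and DAB1, the adaptor of VLDLR and LRP8, from 0.503 ± 0.0426 to 1.19 ± 0.242 CPM (adjusted p = 0.0495). In MKN1 cells reelin itself (RELN) fell from 6.97 ± 5.20 to 2.04 ± 1.03 CPM (adjusted p = 0.010), and in MKN7 clusterin (CLU) rose from 44.8 ± 7.40 to 95 ± 5.01 CPM. These were 1 of 12 genes beside 4.22% of all genes in MKN1 and 1 of 11 beside 9.70% in MKN7.

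Of 22 genes of the Wnt receptor complex, 18 were tested in NCI-N87 cells and 2 fell (median log2FC -0.10), beside 28.2% of all genes called. These were the inhibitor DKK1, which binds LRP5 and LRP6, with 55.6 ± 7.56 CPM after trastuzumab and 11.5 ± 1.52 CPM with afatinib, and its receptor KREMEN2. DKK1 rose in MKN7 cells, from 229 ± 43.1 to 488 ± 10.3 CPM, as did LGR5 (median of the list -0.23). In MKN1 cells RNF43 and SOSTDC1 rose (median -0.12). The calls were 2 of 18 genes beside 9.70% in MKN7 and 2 of 19 beside 4.22% in MKN1. Of 15 genes of TGF-beta receptors, SMADs and NEDD4-type ligases, 2 fell in NCI-N87 (median log2FC -0.32, beside 28.2% of all genes called) while edgeR called 0 in MKN1 (3 at an unadjusted p below 0.05) and 0 in MKN7 (8). PMEPA1, like LDLRAD4 a membrane-bound inhibitor of SMAD signalling, fell from 1071 ± 68.1 to 202 ± 6.68 CPM, a log2FC of -2.43, while LDLRAD4 rose in the same libraries. SMAD3 fell from 112 ± 8.68 to 52.5 ± 2.12 CPM.

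Of 13 ligands of LRP1, 11 were tested in NCI-N87 cells and 2 fell (median log2FC -0.50), beside 28.2% of all genes called. They were PLAUR, the receptor of urokinase, from 31.4 ± 2.52 to 12 ± 1.96 CPM and CTGF from 30.0 ± 4.59 to 14.4 ± 3.91 CPM. In MKN1 cells CTGF fell and MMP13 rose (median -0.13), and in MKN7 MMP9 and PLAT fell and HSPG2 rose (median 0.00), 2 of 12 genes beside 4.22% and 3 of 11 beside 9.70% of all genes. Of 13 sterol-regulated genes, 12 were tested in NCI-N87, of which 2 rose and 3 fell (median log2FC -0.32), 5 of 12 beside 28.2% of all genes. The cholesterol exporter ABCG1 rose from 0.823 ± 0.438 to 6.38 ± 1.47 CPM, while the synthesis enzymes DHCR7 and SQLE fell with log2FC values of -1.43 and -1.40. In MKN1 cells INSIG1, which holds back the processing of sterol regulatory factors, rose from 25.5 ± 5.44 to 64.4 ± 4.09 CPM (median 0.15), 1 of 12 genes, and in MKN7 edgeR called 0, with 5 at an unadjusted p below 0.05. In Hs746T edgeR called 0 genes of the 6 lists, and 1 gene, a ligand of LRP1, had an unadjusted p below 0.05.

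Finally, the genes with the most similar course to LDLRAD1 and LRP2 were listed over the means of the 44 conditions (log2 CPM, centred on each line) among 14690 genes. This is a description, and the 44 points share 4 cell lines and the same treatments. They include the conditions that chose LDLRAD1 and LRP2, so the likeness is no separate support for their changes. LDLRAD1 was followed by GBP2 (Pearson's r 0.98), PBXIP1 (0.96), GALM (0.95), GAMT (0.95) and LBX2 (0.95). LRP2 was followed by NRG4 (r 0.93), ABCA12 (0.92), RASSF9 (0.91), PGAP1 (0.91) and INSIG1 (0.90).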

How the data were processed

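Directional libraries of polyA RNA were sequenced paired end, with 3 libraries per condition and 25832557 to 69434151 counts per library. The authors deposited raw counts per Ensembl gene identifier. The submitters' notes name Trim Galore, STAR and hg38, and the counting tool, its strand setting and the versions are not given in the sources used here. Identifiers were matched to GENCODE 29, and 8404 without a name held 0.0422% of the counts. Groups came from the sample labels. The 9 members, the gene lists and the tests were chosen with earlier results of these data known.

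The tests were run with edgeR 4.0.16 in R 4.3.3, as quasi-likelihood F tests after TMM scaling, and p-values were adjusted by Benjamini-Hochberg over all genes tested. The filter was filterByExpr, set to 10 counts per library and 15 in total. The libraries of each line were fitted together, and all libraries together for comparisons between lines. Replicate numbers are given in the labels. Deviations of same-numbered libraries from the group means correlated above 0.1 in every pair in 35 of 36 comparisons (lowest r -0.01). The tests reported have no block and so do not use this pairing. It enters only the ratios within same-numbered libraries and the alternative fit with the replicate number as a block. The study's methods speak of independent experiments for its in vitro data, but the labels do not say whether the sequenced replicates were separate cultures, and p-values measure only the spread between these libraries.

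Named list genes are at most 3 per list and line with the largest log2FC among those called. Likeness used log2 (CPM + 0.05) of genes with a mean above 1 CPM. Alternatives were DESeq2 1.42.0, library size scaling, no filter, only the groups compared, the replicate block, no fold limit and leaving out each replicate. Figures were drawn with Python and matplotlib.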

Additional observations from a re-analysis of the deposited data

Results flagged for a closer look

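The effects of afatinib added to trastuzumab differed between cell lines or times for 6 members, by edgeR's interaction test. At 24 h, the log2 differences for MKN1 minus NCI-N87 were 1.59 for LRP8, -2.47 for LDLRAD1, 1.23 for VLDLR and -1.66 for LDLRAD4. For MKN7 minus NCI-N87 they were 1.04 for LRP8, -2.57 for LDLRAD1, 1.17 for VLDLR and -2.38 for LDLRAD4. For NCI-N87 minus Hs746T they were -2.39 for LRP8, -1.14 for VLDLR, -1.40 for LDLRAD3, 1.66 for LRP1 and 2.85 for LDLRAD4. For MKN7 minus Hs746T, LRP8 had -1.35 at 24 h and -1.07 at 4 h. The effects at 24 h minus those at 4 h in NCI-N87 cells were -1.77 for LRP8, 2.02 for LDLRAD1, -1.39 for VLDLR, -1.39 for LDLRAD3, 1.23 for LRP1 and 1.53 for LDLRAD4. Of all genes, 11.5% were called at 24 h for MKN1 minus NCI-N87, 8.56% for MKN7 minus NCI-N87 and 18.6% for NCI-N87 minus Hs746T. The share was 4.32% at 24 h and 1.48% at 4 h for MKN7 minus Hs746T, and 14.3% for 24 h minus 4 h in NCI-N87. The differences that involve NCI-N87 share its libraries and are not independent of each other. LDLRAD1 in MKN7 rests on 3 to 24 counts per library. As given above, some of these calls were lost under an alternative. They were all those of VLDLR between lines, LDLRAD1 and LRP8 for MKN7 minus NCI-N87, LRP8 for MKN7 minus Hs746T at 4 h, and LDLRAD4 for 24 h minus 4 h.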

How the results depend on the processing

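No called log2FC of a member turned its direction under DESeq2, library size scaling, no filter, a fit of only the groups compared, the replicate block or without a replicate. Numbers of calls moved as follows. Without the fold limit, the calls were 17 in place of 10 for afatinib added to trastuzumab at 24 h, 7 in place of 2 at 4 h, 9 in place of 2 for afatinib against untreated cells at 4 h, 10 in place of 4 at 24 h in the lines other than NCI-N87, 6 in place of 2 for EGF, 6 in place of 2 for untreated cells over time and 51 in place of 32 between untreated lines, by construction of the rule. With library size scaling, afatinib added to trastuzumab at 4 h had 1 call in place of 2. Leaving out each replicate gave 1 to 2 calls there, 1 to 2 for EGF, 1 to 4 for untreated cells over time and 9 to 14 in place of 15 for differences between lines. Without replicate 1, LRP2 in MKN1 lost its call for afatinib added to trastuzumab, and the cause was not tested. The counts against untreated MKN1 cells at 24 h include LRP2, as does the count over time without replicate 3. The counts between untreated lines include LRP2 and LDLRAD1. The choice of both genes used these libraries. With the replicate block no call was lost, 10 single values gained one, and differences of the afatinib effect between lines had 22 calls in place of 15. Apart from the values given above and that of LRP2 in untreated MKN1 cells over time, the block changed no other call. That value of LRP2 is not read as a result, since the untreated 24 h libraries entered its choice. DESeq2 gave 19 calls for these differences between lines, and over all comparisons of the members tested 6 calls were gained and 1 was lost under it. Depth limits LDLRAD1 in MKN7, Hs746T and MKN1 at 4 h and LRP2 in NCI-N87, where counts are few.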
